A study of Mus musculus with 12 samples.

Results

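Translation initiation and elongation factors were followed in the mouse embryonic cortex between E12.5 and E18.5. Members were all genes whose symbol in the array's probe annotation begins with Eif or Eef and a digit, leaving out Eif2s3x and Eif2s3y. This rule gave 61 genes with 122 probes, out of 19057 annotated genes with 34885 probes of 1 symbol. Of these, 50 members with 94 probes gave a signal above the negative controls and were tested, as were 10662 genes in all. The rule used names only and no measured value.

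Initiation factors bring the small ribosomal subunit, the initiator tRNA and the mRNA together and place the ribosome on a start codon. The eIF4 proteins bind the mRNA cap and unwind the leader, eIF3 holds the small subunit, and eIF2 delivers the initiator tRNA. eIF2 is recharged by eIF2B and is switched off when eIF2 kinases phosphorylate it under stress. Elongation then needs eEF1A, which carries aminoacyl-tRNA to the ribosome, the eEF1B subunits, which reload eEF1A with GTP, and eEF2, which moves the ribosome along by a codon. Several of these proteins are made from paralogous genes, and eEF1A2 is known as the form of eEF1A that mature neurons and muscle use in place of eEF1A1.

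Cortical RNA was hybridized to 12 arrays of the Illumina WG-6 v2.0 BeadChip, 4 from E12.5, 4 from E15.5 and 4 from E18.5. The labels give the stage and the tissue but no genotype, and the methods of the study give C57BL/6J as the mouse background. One embryo per array is what the series' design text implies, so p-values measure the spread between embryos of a stage. Values below are background-corrected, quantile-normalized log2 signals of the brightest detected probe of each gene. Values of different probes were not set against each other, since probes differ in brightness.

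Before any comparison, 2 arrays stood apart. The summed signal of 7 neuronal markers was 16208.6 in E12.5 replicate 4, whereas the other 3 E12.5 arrays lay between 6930.82 and 7826.74. Its summed signal of 6 interneuron markers was 890.069, against 142.679 to 155.019 in those 3 arrays, that of 5 choroid plexus markers was 6177.46, against 14244.9 to 17947.9, and that of 5 markers of dividing cells was 12116.3, against 15928.8 to 17328.2. For 15 of the 19 members that changed between E12.5 and E15.5, this array was the E12.5 array closest to E15.5. In E15.5 replicate 4 the summed signal of 5 choroid plexus markers was 11607.6, and the 3 other arrays of that stage had 256.939 to 300.046. The members whose calls changed without either array are given after the single genes.

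Cell type markers moved with stage. All 7 detected neuronal markers were higher in E18.5 than in E12.5 cortices, with summed signals between 6930.82 and 16208.6 at E12.5, between 25708.9 and 31100.7 at E15.5, and between 63765.5 and 67525.1 at E18.5. Snap25 was not detected. All 7 progenitor markers and all 5 detected markers of dividing cells were lower at E18.5, and the dividing-cell sum was between 12116.3 and 17328.2 at E12.5, between 5665.66 and 7703.96 at E15.5, and between 1541.36 and 1758.65 at E18.5. Of the cortical markers, 3 of 4 detected were higher and 1 was lower, and Emx2 was not detected. All 6 interneuron markers, 3 of 4 endothelial and 3 of 5 microglial markers were higher, while all 3 primitive erythroid and all 5 choroid plexus markers were lower at E18.5. The part of these shifts in the changes of the translation factors was not tested. In whole-tissue RNA, fewer cells of a type and less RNA per cell cannot be told apart.

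Most translation factors changed little between stages. A change was counted at a limma adjusted p under 0.01, with no minimum fold. At E15.5 compared with E12.5, 7 of 50 members were higher and 12 were lower. This makes 38% of members, where 46% of all tested genes passed (24.2% higher and 21.8% lower). At E18.5 compared with E15.5, 4 were higher and 18 were lower, which makes 44% of members against 43.2% of all genes (19.8% higher and 23.4% lower). Over the whole period, at E18.5 compared with E12.5, 8 were higher and 20 were lower. This is 56% of members, below the 65.9% of all tested genes that passed (31.5% higher and 34.4% lower).

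The direction was mostly downward and the size small. The median log2 change of the members was -0.14, -0.13 and -0.26 for these 3 comparisons, and over all tested genes it was -0.01, -0.06 and -0.07. Between E12.5 and E18.5, 62% of members stayed within 0.5 log2 units of their E12.5 level, as did 43.5% of all genes. Their median change, whatever its sign, was 0.41 for members and 0.59 for all genes. At least 2-fold, 1 member was higher and 1 lower at E15.5 compared with E12.5 (7.73% and 5.18% of all genes), and 0 and 1 at E18.5 compared with E15.5 (6.95% and 5.47% of all genes). Over the whole period, 3 members were higher (Eef1a2, Eef2k and Eif4a2) and 4 were lower (Eef1d, Eif2ak2, Eif4e2 and Eif4ebp1) by at least 2-fold, where 16.3% of all genes were higher and 13.8% were lower. All 4 arrays of E18.5 lay on one side of all 4 arrays of E12.5 for 32 of 50 members, against 68.5% of all genes. The stages were separate for 26 members between E12.5 and E15.5 (52.9% of all genes) and for 30 between E15.5 and E18.5 (56.5% of all genes). Median scaling in place of quantile normalization gave 8 higher and 7 lower members at E15.5 compared with E12.5, and cyclic loess gave 8 higher and 12 lower at E18.5 compared with E15.5.

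**Figure D1:**
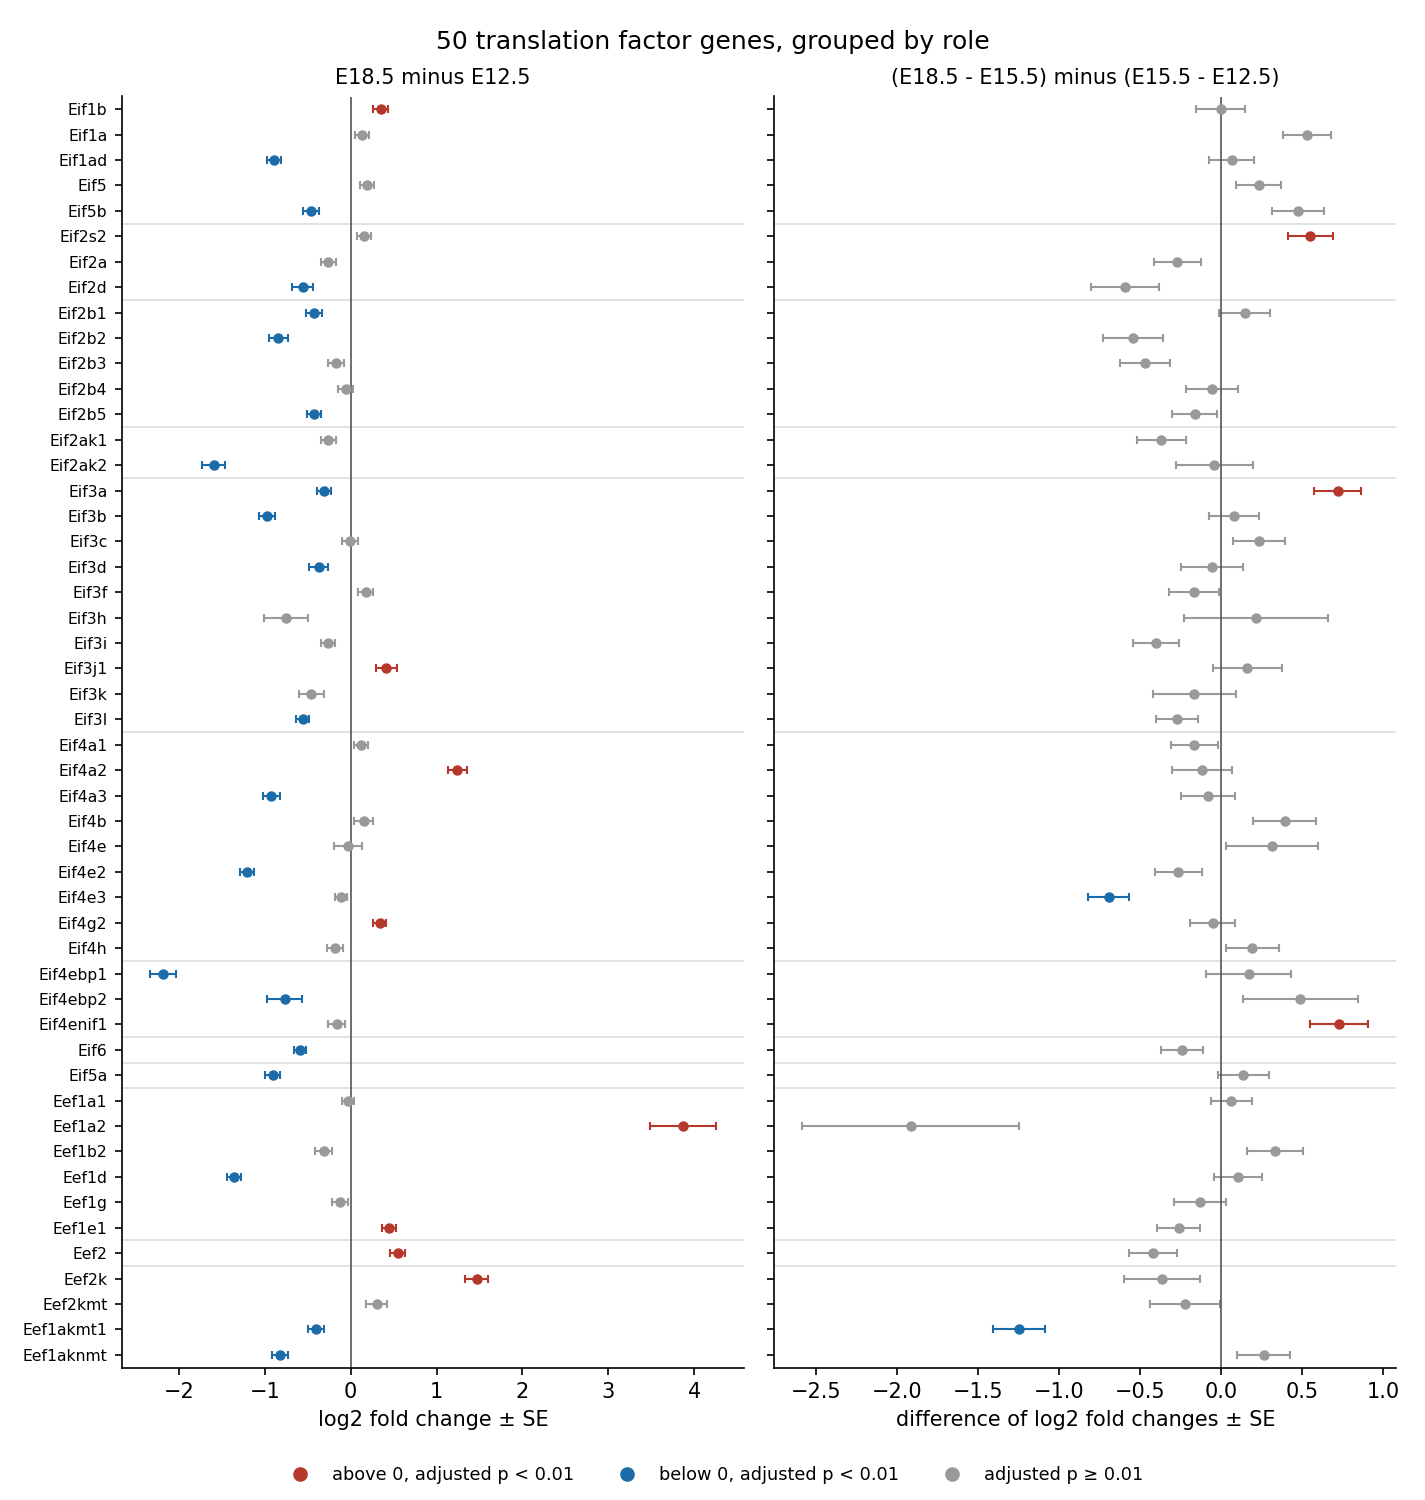
Log2 fold change with its SE at E18.5 compared with E12.5 (left) and the change of the second interval minus that of the first (right) for 50 translation factor genes, grouped by role. Over the whole period 8 genes lie above 0 and 20 below 0 at an adjusted p under 0.01, and Eef1a2 lies farthest to the right.

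Among the elongation factors, the 2 genes for eEF1A moved apart. Eef1a2 was 14.6-fold higher in E18.5 than in E12.5 cortices, while the Eef1a1 signal differed by less than its spread. The Eef1a2 values were 6.97, 6.75, 6.92 and 9.09 at E12.5, 10.18, 10.55, 10.34 and 10.23 at E15.5, and 11.46, 11.18, 11.33 and 11.23 at E18.5. Each stage lay above the one before with no overlap, and E12.5 replicate 4 was more than 2 log2 units above the other arrays of its stage. The gain was 2.89 ± 0.39 (SE) in the first interval (limma, adjusted p = 3.31e-05, 7.43-fold) and 3.87 ± 0.39 over both intervals (adjusted p = 6.86e-07). The second interval gave 0.98 ± 0.39 and missed the threshold (adjusted p = 0.0463).

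The Eef1a2 result depended on E12.5 replicate 4 in 2 respects. Without this array the changes were 3.45, 0.98 and 4.42, and the second interval passed (adjusted p = 3.28e-06). Without it the gain of the second interval also differed from that of the first, with a second minus first interval of -2.47 (adjusted p = 6.61e-07), whereas with it this difference was not called (adjusted p = 0.0439). The further Eef1a2 probe that was detected on all arrays rose by 3.89 over the whole period. The other was detected on only 1 of 4 arrays at E12.5 and on all later arrays. This probe was higher by 1.41 in the second interval (adjusted p = 1.35e-04). Its second minus first interval was -0.67 and was not called (adjusted p = 0.215), with E12.5 values near background.

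Eef1a1, the eEF1A gene of most proliferating cells, gave 14.68, 14.73, 14.58 and 14.79 at E12.5, 14.68, 14.66, 14.65 and 14.60 at E15.5, and 14.68, 14.66, 14.65 and 14.66 at E18.5. The stages overlapped throughout. At E18.5 compared with E12.5 the change was -0.03, with a 95% interval of -0.19 to 0.12. This probe ranked between 2 and 25 of 45281 by signal on every array, a range in which quantile normalization leaves little freedom to vary. Its signals before normalization were 23928.9 to 29073.5. Under median scaling the change was -0.33 (adjusted p = 0.00621), so that the call rests on the scaling. Eef1a1 also has near-identical copies in the genome, and what share of the signal they give was not tested.

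A shift shared by all probes of an array cancels in the difference between paralogs on that array, which still depends on how the arrays were normalized. Since Eef1a1 varied little, this difference adds little to the Eef1a2 values themselves. Eef1a2 minus Eef1a1 was higher by 2.94 log2 units in E15.5 than in E12.5 cortices, by 0.96 in E18.5 than in E15.5 cortices, and by 3.90 in E18.5 than in E12.5 cortices. In each comparison the stages did not overlap, and a two-sided exact permutation test gave p = 0.0286, the smallest that 4 arrays against 4 can give (adjusted p = 0.0457 over 24 tests of 8 paralog pairs). The difference over the whole period was 4.40 under median scaling and 3.42 without background correction. None of the 15 paralog differences that passed did so in every setting. Each missed 0.05 when any of at least 5 single arrays was left out, and each missed it with the probes of a gene averaged. With probes averaged, Eef1a2 minus Eef1a1 still gave an exact permutation p = 0.0286 in each comparison, while fewer tests of other pairs reached that p. An adjusted p here thus depends on the other pairs, and such a miss does not measure a weaker difference of this pair.

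**Figure D2:**
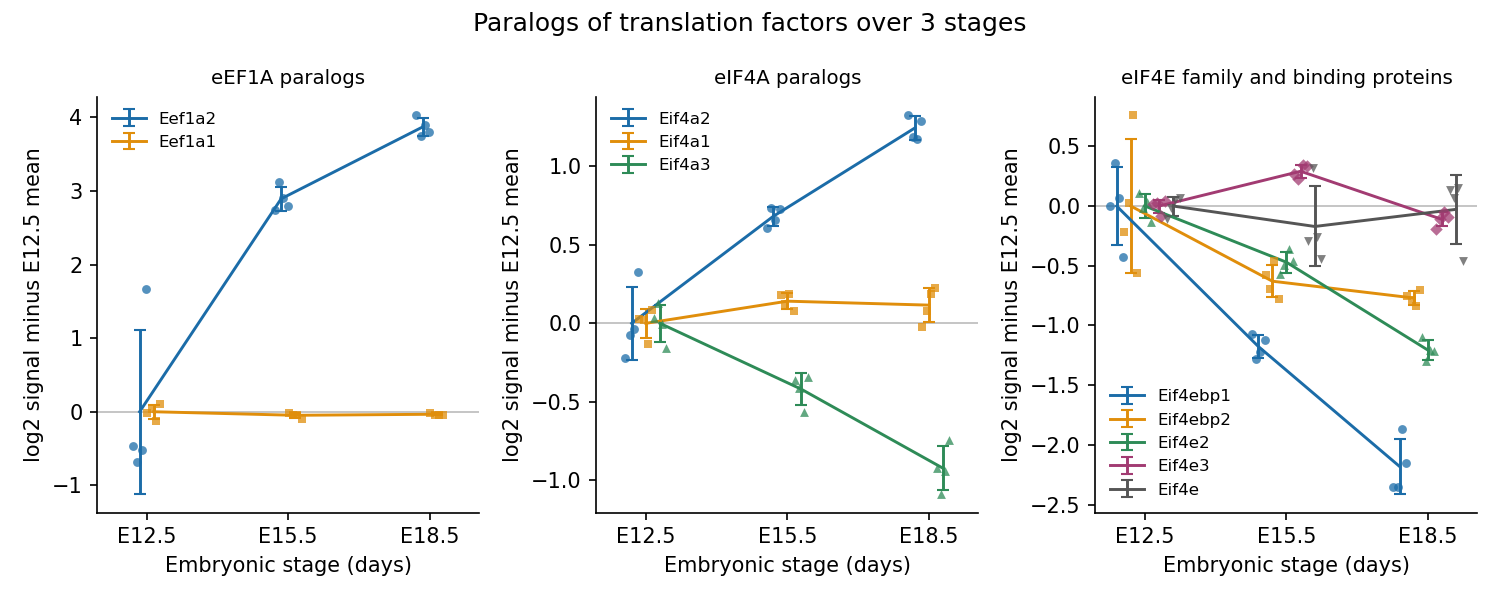
Log2 signal minus the E12.5 mean of the same gene at each stage, for paralogs of eEF1A, of eIF4A and of eIF4E with its binding proteins, with points for single arrays (4 per stage) and lines with bars for the mean ± SD. Eef1a2 and Eif4a2 lie above their E12.5 mean at E18.5 while Eef1a1 and Eif4a1 stay near it, and Eif4ebp1 has the lowest E18.5 points of its panel.

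Promoter sequences of these paralogs are shown because the genes of a pair changed differently. Windows of 300 bases, 250 before and 50 after the start of a gene in RefSeq (build GRCm38.p6), were matched for 46 of the 61 members. Each line gives 150 bases from 120 before to 30 after the start, on the strand of the gene, with every CpG in capitals.
Eef1a2 (chr2:181156986-181157135, minus strand): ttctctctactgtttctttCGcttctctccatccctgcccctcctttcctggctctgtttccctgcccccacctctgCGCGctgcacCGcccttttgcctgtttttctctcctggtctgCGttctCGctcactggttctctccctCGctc
Eef1a1 (chr9:78481695-78481844, minus strand): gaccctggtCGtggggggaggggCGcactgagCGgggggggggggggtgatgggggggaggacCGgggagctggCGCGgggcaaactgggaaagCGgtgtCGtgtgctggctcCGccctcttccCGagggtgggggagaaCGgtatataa
Eif4a2 (chr16:23107348-23107497, plus strand): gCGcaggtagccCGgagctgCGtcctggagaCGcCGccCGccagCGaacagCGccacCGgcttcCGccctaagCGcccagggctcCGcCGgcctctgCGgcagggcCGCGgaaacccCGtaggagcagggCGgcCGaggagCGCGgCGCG
Eif4a1 (chr11:69672394-69672543, minus strand): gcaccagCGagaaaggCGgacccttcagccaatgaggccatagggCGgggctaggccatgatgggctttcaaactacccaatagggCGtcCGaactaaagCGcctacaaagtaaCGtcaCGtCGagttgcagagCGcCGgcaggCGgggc

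The printed stretch held 7 CpG in Eef1a2, 11 in Eef1a1, 23 in Eif4a2 and 12 in Eif4a1. Over the whole window of 300 bases the counts were 8, 22, 36 and 23, with a GC content of 55%, 66.7%, 67.7% and 60.7%. The median was 24 CpG over all member windows and 7 over all promoter windows. Of the 4 genes, Eef1a2 had the fewest CpG, a count that 54.2% of all windows did not exceed, and for Eif4a2 this share was 94.4%. These counts describe the sequence only, and no methylation was measured.

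The remaining eEF1 genes did not move as a group. Eef1d, a guanine nucleotide exchange subunit of eEF1B, gave 12.93, 12.97, 12.81 and 12.69 at E12.5, 12.17, 12.08, 12.03 and 12.19 at E15.5, and 11.40, 11.54, 11.58 and 11.45 at E18.5. The 3 stages were fully separated. Eef1d was 2.56-fold lower in E18.5 than in E12.5 cortices (adjusted p = 7.68e-09), having fallen by 0.73 ± 0.09 and by 0.63 ± 0.09 in the 2 intervals. This fall rests on the choice of probe. Of 3 further probes on other transcript records, 1 was also lower and 2 were higher. The lower one was detected on all arrays and fell by 1.03. Of the higher ones, 1 was detected on 0, 0 and 2 arrays of the 3 stages, and the other on 0, 4 and 4. With all probes of Eef1d averaged, these dim ones included, the change over the whole period was -0.01 (adjusted p = 0.883). Eef1b2, the other exchange subunit examined, changed by -0.32 over the whole period and was not called (adjusted p = 0.0121), although another of its probes was lower by 0.62 (adjusted p = 1.17e-05). Eef1d minus Eef1b2 was lower by 0.41 in E15.5 than in E12.5 cortices and by 1.04 in E18.5 than in E12.5 cortices (exact permutation p = 0.0286 and adjusted p = 0.0457 each). With probes averaged this difference turned round, to 0.43 (adjusted p = 0.0623) and 0.46 (adjusted p = 0.0980) higher in the same comparisons.

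Eef1g, the structural subunit of eEF1B, ranged from 13.81 to 14.24 over all 12 arrays and was called in none of the comparisons. Under median scaling it was lower in E18.5 than in E12.5 cortices, with a log2 change of -0.44 (adjusted p = 0.00377). The absence of a call thus rests on the scaling. Eef1e1, a scaffold protein of the multi-tRNA synthetase complex, gave between 10.72 and 10.81 at E12.5, between 11.08 and 11.15 at E15.5, and between 11.10 and 11.32 at E18.5. It was higher by 0.35 ± 0.08 in the first interval (adjusted p = 0.00145) and by 0.45 ± 0.08 over both (adjusted p = 1.29e-04). Eef2, which drives translocation, showed the same order of stages. Its values were between 11.36 and 11.52 at E12.5, between 11.87 and 11.99 at E15.5, and between 11.81 and 12.15 at E18.5, with gains of 0.48 ± 0.08 in the first interval (adjusted p = 2.85e-04) and 0.55 ± 0.08 over both (adjusted p = 5.03e-05). In the second interval Eef1e1 and Eef2 changed by 0.09 and 0.06 and neither was called. Further Eef2 probes rose by 0.39 and 0.37 in the first interval. Over both intervals the former changed by 0.23 and was not called (adjusted p = 0.0726), and the latter rose by 0.44 (adjusted p = 6.10e-04).

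Enzymes that modify the elongation factors changed in both directions. Eef2k, the calcium-dependent kinase that phosphorylates eEF2 and slows elongation, gave 6.93, 6.92, 6.55 and 7.35 at E12.5, 7.80, 7.80, 7.83 and 7.98 at E15.5, and 8.38, 8.37, 8.32 and 8.55 at E18.5. The stages did not overlap. Eef2k was 2.76-fold higher in E18.5 than in E12.5 cortices (1.47 ± 0.13, adjusted p = 2.91e-07). A second, dim probe for Eef2k on another transcript record was detected on 0, 3 and 1 arrays of the 3 stages and was lower by 0.49 in E18.5 than in E15.5 cortices (adjusted p = 0.00383).

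Eef1akmt1, a lysine methyltransferase of eEF1A, peaked at E15.5. Its values were 9.28, 9.35, 9.08 and 9.06 at E12.5, 9.68, 9.64, 9.66 and 9.46 at E15.5, and 8.68, 8.74, 8.86 and 8.85 at E18.5. All E15.5 arrays lay above, and all E18.5 arrays below, those of the other stages. It was higher by 0.42 ± 0.09 in E15.5 than in E12.5 cortices (adjusted p = 0.00157) and lower by 0.83 in E18.5 than in E15.5 cortices, a log2 change of -0.83 ± 0.09 (adjusted p = 5.85e-06). Eef1aknmt, which methylates a lysine and the N terminus of eEF1A, fell by 0.82 ± 0.09 between E12.5 and E18.5 (adjusted p = 2.51e-06), and its 2 further probes fell by 0.86 and 0.40.

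The 5 tested members grouped here around start codon selection did not move together. Eif1a, which helps the small subunit to scan, was higher by 0.33 ± 0.09 in E18.5 than in E15.5 cortices (adjusted p = 0.00554) but differed by 0.13 between E18.5 and E12.5 (adjusted p = 0.186). Its call was lost under median scaling (adjusted p = 0.0226) and when any of 6 single arrays was left out. Eif1b, a paralog of the start codon factor eIF1, was higher by 0.35 ± 0.09 in E18.5 than in E12.5 cortices (adjusted p = 0.00269), a call that was lost when single arrays were left out. Eif1ad, named for its eIF1A-like domain, gave between 10.27 and 10.49 at E12.5, between 9.85 and 10.01 at E15.5, and between 9.42 and 9.59 at E18.5. It fell by 0.89 ± 0.08 over the whole period (adjusted p = 2.37e-07), and its other probes fell by 0.92 and 1.81. Of the 5 members of this group, 1 was higher (Eif1b) and 2 were lower (Eif1ad and Eif5b) in E18.5 than in E12.5 cortices. Over all tested genes these shares were 31.5% and 34.4%. The grouping was made here and does not show that each member selects a start codon.

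Members around eIF2 were lower or not called at E18.5 compared with E12.5. None of the 10 tested members of the eIF2, eIF2 kinase and eIF2B groups was higher and 5 were lower, beside 31.5% and 34.4% of all tested genes. Under median scaling 2 were lower, Eif2ak2 and Eif2b2, and the calls for Eif2b1, Eif2b5 and Eif2d were lost. Eif2ak2, the double-stranded RNA-activated eIF2 kinase PKR, gave 7.74, 7.55, 7.57 and 7.43 at E12.5, 7.14, 6.39, 6.77 and 6.89 at E15.5, and 5.87, 5.88, 6.09 and 6.07 at E18.5. The stages did not overlap, and the fall was 3.02-fold over the whole period (adjusted p = 1.46e-07). Before background correction and normalization its signals were 215.2 to 228 at E12.5 and 136.9 to 147.8 at E18.5. Median array signals at E18.5 were 94.97 to 99.3. The size of the Eif2ak2 fall thus depends on the background correction. Of the 5 eIF2B subunits, 3 were lower in E18.5 than in E12.5 cortices and none was higher. Eif2b2 changed by -0.15 in the first interval (adjusted p = 0.261) and fell by 0.69 ± 0.11 in the second (adjusted p = 1.08e-04).

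Eif2s2, the beta subunit of eIF2, took another course. Its values were 11.25, 11.14, 11.17 and 11.30 at E12.5, 11.00, 11.03, 11.03 and 11.02 at E15.5, and 11.36, 11.20, 11.46 and 11.48 at E18.5. All E15.5 arrays were below all others. The gain at E18.5 over E15.5 was 0.35 ± 0.08 (adjusted p = 0.00226), and a second probe rose by 0.30. Eif2d, which can also deliver the initiator tRNA, was lower by 0.56 in E18.5 than in E12.5 cortices, a log2 change of -0.56 ± 0.12 (adjusted p = 8.70e-04), with nearly all of it in the second interval (-0.58).

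eIF3, the large scaffold complex on the small subunit, had 10 tested subunits. Of these, 1 was higher and 4 were lower in E18.5 than in E12.5 cortices, beside 31.5% and 34.4% of all tested genes. Eif3b, a core subunit, gave 10.52, 10.33, 10.47 and 10.15 at E12.5, 9.85, 9.83, 9.81 and 9.87 at E15.5, and 9.36, 9.35, 9.36 and 9.49 at E18.5. It fell by 0.97 ± 0.09 over the whole period with no overlap between stages (adjusted p = 2.73e-07), whereas a second probe changed by -0.36 and was not called (adjusted p = 0.0311). Eif3a, another core subunit, was lower by 0.51 in E15.5 than in E12.5 cortices, a log2 change of -0.51 ± 0.09 (adjusted p = 1.91e-04), and differed by 0.20 between E18.5 and E15.5 (adjusted p = 0.0590). Eif3j1, a loosely bound subunit, was the one that was higher in E18.5 than in E12.5 cortices (0.42 ± 0.12, adjusted p = 0.00791). The calls for Eif3a, Eif3d and Eif3j1 over the whole period were lost when single arrays were left out. Eif3i was not called over the whole period, with a change of -0.26 for its brightest probe. Its other probes were both lower, with log2 changes of -0.80 (adjusted p = 8.99e-07) and -0.55 (adjusted p = 3.01e-05).

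The 3 eIF4A genes changed in 3 ways. In all 3 comparisons Eif4a2 was higher in the later stage and Eif4a3 was lower, and Eif4a1 was not called. eIF4A1 and eIF4A2 are the helicases of the cap-binding complex, while eIF4A3 is part of the exon junction complex laid down at splicing. Eif4a2 gave 12.53, 12.68, 12.71 and 13.08 at E12.5, 13.36, 13.48, 13.41 and 13.48 at E15.5, and 14.07, 13.93, 13.92 and 14.04 at E18.5. The gains were 0.68 ± 0.11 (adjusted p = 1.20e-04) and 0.56 ± 0.11 (adjusted p = 5.78e-04) in the 2 intervals, and 2.37-fold over both (adjusted p = 1.54e-07). Under median scaling the second gain was 0.30 and missed the threshold (adjusted p = 0.0507). Of its 2 further probes, one moved the other way in the first interval, and with probes averaged the first gain was 0.29 (adjusted p = 0.135).

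Eif4a3 gave 11.50, 11.59, 11.46 and 11.30 at E12.5, 11.10, 11.05, 10.89 and 11.12 at E15.5, and 10.54, 10.38, 10.52 and 10.72 at E18.5. It fell by 0.92 ± 0.10 over the whole period, with no overlap between stages (adjusted p = 1.01e-06), and under median scaling its first interval gave -0.32 and was not called (adjusted p = 0.0414). Eif4a1 ranged from 13.91 to 14.27 over all arrays, and its change at E18.5 compared with E12.5 was 0.12 (adjusted p = 0.220). A second Eif4a1 probe was lower by 0.41 in this comparison (adjusted p = 2.99e-04). Relative to Eif4a1 on the same array, Eif4a2 was higher by 1.13 and Eif4a3 lower by 1.04 log2 units in E18.5 than in E12.5 cortices (exact permutation p = 0.0286 and adjusted p = 0.0457 each).

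Of the cap-binding proteins, Eif4e2 changed most. It encodes 4EHP, which binds the cap without recruiting the initiation complex and represses translation. Its values were 10.83, 10.71, 10.76 and 10.60 at E12.5, 10.15, 10.24, 10.37 and 10.27 at E15.5, and 9.63, 9.43, 9.52 and 9.51 at E18.5, so the stages were separate. The fall was 2.31-fold over the whole period (adjusted p = 1.75e-08). Eif4e, the main cap-binding protein, changed by -0.17, 0.14 and -0.03 in the 3 comparisons, and none was called. Eif4e2 minus Eif4e was lower by 1.18 in E18.5 than in E12.5 cortices (exact permutation p = 0.0286, adjusted p = 0.0457) and with probes averaged by 0.67 (adjusted p = 0.137), and the differences in the single intervals did not pass (adjusted p = 0.187 and 0.0762).

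Eif4e3, the third cap-binding paralog, gave 8.67, 8.69, 8.58 and 8.70 at E12.5, 8.92, 8.88, 9.00 and 8.99 at E15.5, and 8.47, 8.55, 8.61 and 8.57 at E18.5. All E15.5 arrays lay above all others. The change was 0.29 ± 0.07 in the first interval (adjusted p = 0.00378) and -0.40 ± 0.07 in the second (adjusted p = 3.72e-04), and both further probes also fell in the second. The call of the first interval was lost without E15.5 replicate 3 or 4 (0.28 without replicate 4, adjusted p = 0.0126), with the replicate number as a block (adjusted p = 0.0119) and with only the 2 stages in the fit, and that of the second under median scaling (-0.30, adjusted p = 0.0251). Relative to Eif4e, none of its 3 changes passed (adjusted p = 0.131, 0.0762 and 0.657). Eif4b and Eif4h, which stimulate the eIF4A helicase, were called in none of the comparisons, and their difference did not pass either (adjusted p = 0.537, 0.108 and 0.0762). Eif4g2, an eIF4G-related scaffold for cap-independent initiation, was higher by 0.34 ± 0.08 in E18.5 than in E12.5 cortices (adjusted p = 0.00172). Of its further probes, one was higher by 1.03 and the other changed by -0.22 (adjusted p = 0.614).

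Of the 3 tested proteins that bind eIF4E, 2 were lower at E18.5 compared with E12.5. Over all tested genes 34.4% were lower in this comparison. Eif4ebp1, the mTOR-controlled repressor, had the largest fall of all members. Its values were 9.16, 9.51, 9.23 and 8.73 at E12.5, 8.08, 7.88, 7.93 and 8.04 at E15.5, and 6.80, 6.81, 7.29 and 7.00 at E18.5. The stages did not overlap. It fell by 1.17 ± 0.15 and by 1.01 ± 0.15 in the 2 intervals (adjusted p = 2.54e-05 and 8.48e-05), and was 4.54-fold lower in E18.5 than in E12.5 cortices (adjusted p = 1.83e-08).

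Eif4ebp2, the paralog known as the main form in adult brain, gave 9.25, 9.49, 10.23 and 8.91 at E12.5, 8.89, 8.77, 9.01 and 8.70 at E15.5, and 8.72, 8.68, 8.63 and 8.77 at E18.5. Its E12.5 arrays were more spread than those of either later stage. It was lower by 0.77 in E18.5 than in E12.5 cortices, a log2 change of -0.77 ± 0.21 (adjusted p = 0.00396), a call that was lost when single arrays were left out. Eif4ebp2 minus Eif4ebp1 was higher by 0.87 in E18.5 than in E15.5 cortices and by 1.41 in E18.5 than in E12.5 cortices (exact permutation p = 0.0286 and adjusted p = 0.0457 each), and the first interval did not pass (0.55, adjusted p = 0.131). Leaving out single arrays took the adjusted p of these differences up to 0.0857 and 0.0914. Eif4ebp3 was not detected.

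Eif5a, the hypusine-bearing factor that frees ribosomes stalled at difficult peptide bonds, gave between 12.28 and 12.41 at E12.5, between 11.71 and 11.97 at E15.5, and between 11.28 and 11.61 at E18.5. It fell by 0.91 ± 0.09 over the whole period (adjusted p = 6.25e-07), and its other 2 probes fell by 0.84 and 1.05. Eif6, which keeps the large ribosomal subunit from joining too early, was chosen after its values were seen. It fell by 0.59 ± 0.08 over the whole period (adjusted p = 8.11e-06). A second, dim Eif6 probe on another transcript record was detected on 0, 2 and 2 arrays of the 3 stages. That probe changed by 0.06 (adjusted p = 0.734), and with probes averaged the call was lost.

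Read over both intervals, 21 of the 50 members were called in neither, against 35.6% of all tested genes. A fall in both was found for 8 members (10.5% of all genes), Eef1d, Eif1ad, Eif2ak2, Eif3b, Eif4a3, Eif4e2, Eif4ebp1 and Eif5a. A further 8 were lower in the second interval only by this count (10.4% of all genes), among them Eif2b2, Eif2b3, Eif2b5, Eif2d and Eif6, and 4 in the first (Eef1aknmt, Eif3a, Eif4enif1 and Eif5b, 9.7% of all genes). Eef2k and Eif4a2 were higher in both intervals (10.3% of all genes), Eef1a2, Eef1e1 and Eef2 in the first (11.5%), and Eif1a and Eif2s2 in the second (7.98%). Eef1akmt1 and Eif4e3 were higher in the first and lower in the second (2.48%). The calls of the second interval for Eef2k, Eif1a, Eif2ak1, Eif2b3, Eif2b5, Eif3i and Eif5a were lost when single arrays were left out. Under median scaling the calls of the first interval for Eif1ad, Eif4a3, Eif4e2, Eif4enif1 and Eif5b were lost. So were those of the second for Eif1a, Eif1ad, Eif2ak1, Eif2b3, Eif2b5, Eif4a2 and Eif4e3. With probes averaged, Eef1d, Eif4a2 and Eif4e2 lost the call of the first interval, and Eef1d, Eef2k, Eif3b and Eif6 that of the second. A call in one interval and none in the other does not show that the intervals differ.

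That difference was therefore tested, and 5 of 50 members passed, or 10%, against 18.2% of all tested genes (8.01% above 0 and 10.2% below). Eef1akmt1 (second minus first interval -1.25 ± 0.16, adjusted p = 9.22e-05) and Eif4e3 (-0.69 ± 0.13, adjusted p = 0.00109) were highest at E15.5. Eif2s2 (0.55 ± 0.14, adjusted p = 0.00966), Eif3a (0.72 ± 0.15, adjusted p = 0.00266) and Eif4enif1 (0.73 ± 0.18, adjusted p = 0.00794) had their lowest mean at E15.5. Eif4enif1 encodes 4E-T, which carries eIF4E into the nucleus and into processing bodies, and was named after its values were seen. Its values were 10.68, 10.47, 10.63 and 10.32 at E12.5, 9.96, 10.07, 10.11 and 10.18 at E15.5, and 10.35, 10.58, 10.26 and 10.26 at E18.5. The calls for Eef1akmt1 and Eif4e3 held when any 1 array was left out, and those for Eif2s2, Eif3a and Eif4enif1 did not.

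Without E12.5 replicate 4, further members were called beside Eef1a2. At E15.5 compared with E12.5, Eif2b1 changed by -0.33 (adjusted p = 0.00907) and Eif4ebp2 by -0.82 (adjusted p = 0.00157). At E18.5 compared with E12.5, Eif2ak1 changed by -0.31 (adjusted p = 0.00600) and the brightest Eif3i probe by -0.29 (adjusted p = 0.00825), and the call for Eif3d was lost. The second minus first interval of Eif1a was 0.58 (adjusted p = 0.00645), and that of Eif2s2 was no longer called. Without E15.5 replicate 4, calls were lost for Eif4e3 in the first interval, for Eif2ak1, Eif2b3 and Eif2b5 in the second, for Eif3d over both, and for Eif2s2 and Eif4enif1 in the difference between intervals.

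**Figure D3:**
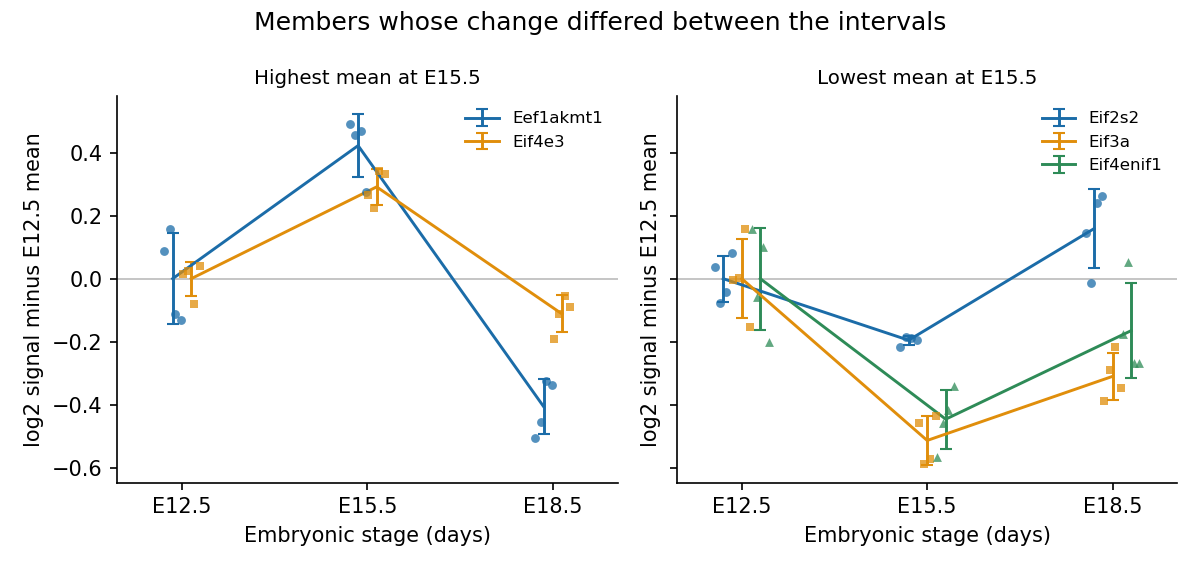
Log2 signal minus the E12.5 mean of the same gene at each stage for the 5 members whose change differed between the intervals, with points for single arrays (4 per stage) and lines with bars for the mean ± SD. The E15.5 points of Eef1akmt1 and Eif4e3 lie above those of both other stages, and those of Eif2s2, Eif3a and Eif4enif1 lie below.

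Of the tested members, 29 had 44 further detected probes, and these did not always move with the brightest one. At E18.5 compared with E12.5 the brightest probe was called for 28 of the 44, and 18 of those had the same call on the further probe, 8 had none and 2 had the opposite call. The 2 opposite calls were both Eef1d probes on other transcript records. One of them, ILMN_3061673, was detected only on 2 E18.5 arrays, so that no bound on its change could be set. Probe ILMN_2423292 gave 4.99, 5.04, 5.51 and 5.60 at E12.5, 6.58, 6.96, 6.85 and 6.79 at E15.5, and 6.92, 7.14, 7.31 and 7.26 at E18.5. It was not well above background on any E12.5 array. Its measured changes from E12.5 were 1.87 at E18.5 (adjusted p = 6.41e-08) and 1.51 at E15.5 (adjusted p = 4.08e-06). Set against the dimmest detected signal of the E12.5 arrays, its E18.5 level was at least 2.62-fold and its E15.5 level at least 2.04-fold higher. These bounds were not tested. Another Eef1d probe, ILMN_3139168, was lower by 1.03 in E18.5 than in E12.5 cortices (adjusted p = 8.02e-05), as the brightest was.

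Eif4a2 and Eif4e2 each had probes that differed. For Eif4a2, ILMN_2702215 rose by 2.54 over the whole period (adjusted p = 2.26e-08), with the direction of the brightest probe. In contrast, ILMN_2449506, on the same transcript record, gave 7.41, 7.28, 8.04 and 7.81 at E12.5, 6.02, 6.63, 5.82 and 6.01 at E15.5, and 7.59, 7.33, 6.41 and 5.88 at E18.5. It was lower by 1.51 in E15.5 than in E12.5 cortices (adjusted p = 0.00128), and its E18.5 arrays overlapped both other stages. For Eif4e2, ILMN_3065816 fell by 1.11 over the whole period, while ILMN_2766616 changed by 0.23 and was not called (adjusted p = 0.0286). No probe sequences were used here, so which isoform each probe matches was not tested.

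**Figure D4:**
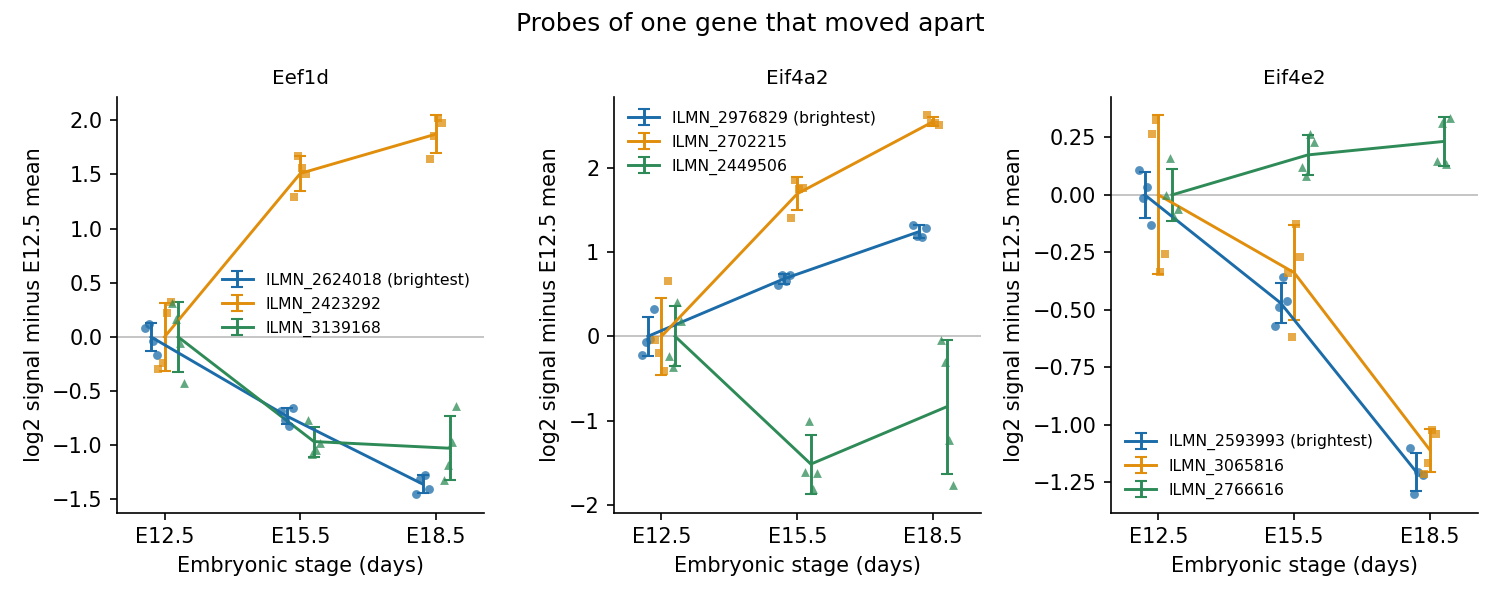
Log2 signal minus the E12.5 mean of the same probe at each stage, for 3 probes each of Eef1d, Eif4a2 and Eif4e2, with points for single arrays (4 per stage) and lines with bars for the mean ± SD. ILMN_2423292 of Eef1d, undetected at E12.5, lies above 0 at both later stages, where the brightest Eef1d probe lies below.

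The promoter windows were also searched for short motifs on both strands. The ETS-type letters CCGGAAGT occurred in 9 of 46 members (19.6%) and in 4.31% of 27025 genes with a window. Among members with a window, 5 of 16 that were lower in E18.5 than in E12.5 cortices had it, namely Eif2b2, Eif3d, Eif3l, Eif4e2 and Eif5a, and 0 of 7 that were higher. The other members with it were Eef1b2, Eif2ak1 and Eif2b4, not called in this comparison, and Eif5a2, not detected. The stretches around the sites of 4 lower members are printed on the strand of the gene, since these share a direction of change. Capitals mark the motif or its reverse complement.
Eif3d (chr15:77970872-77970911, minus strand): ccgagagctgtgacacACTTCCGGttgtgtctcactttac
Eif3l (chr15:79075171-79075210, plus strand): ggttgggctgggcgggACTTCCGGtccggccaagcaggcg
Eif4e2 (chr1:87213900-87213939, plus strand): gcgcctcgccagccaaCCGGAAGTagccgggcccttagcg
Eif5a (chr11:69920662-69920701, minus strand): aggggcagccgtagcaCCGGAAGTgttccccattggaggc

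Such a match describes letters and not a bound site, and members and other genes also differ in CpG content. The E-box CACGTG occurred in 26.1% of members and 8.09% of all genes, and TATAAA in 6.52% and 15.7%. CAGATG, a proneural E-box, occurred in 4.35% of members and 19.2% of all genes, with Eef1e1 and Eef2k as its 2 members, both of them higher in E18.5 than in E12.5 cortices. TGACGTCA was found in Eef2 and TGATGNAA in Eef2k, making 2.17% of members each, against 2.03% and 4.51% of all genes.

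Genes that act beside these factors were also read as lists. Of 7 termination and recycling factors, 1 was higher and 3 were lower in E18.5 than in E12.5 cortices, with a median change of -0.47. Over all tested genes 31.5% were higher and 34.4% lower, with a median of -0.07, and the counts of the lists that follow stand beside these shares. Gspt2, an eRF3 paralog, fell by 0.60 in the first interval and was higher by 1.21 in the second, whereas its paralog Gspt1 fell by 0.79 and Etf1, the factor that reads stop codons, by 0.78 over both. Of 10 poly(A)-binding and mRNA-bound regulators, 1 was higher and 4 were lower, with Pdcd4, an inhibitor of eIF4A, lower by a log2 change of -1.18 and Mcts1, a reinitiation factor, higher by 1.07.

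Signaling genes upstream changed in both directions, and the shares of all genes at E18.5 compared with E12.5 were again 31.5% higher and 34.4% lower. Of 10 tested genes of mTOR signaling, 0 passed in the first interval, against 46% of all tested genes, and at E18.5 compared with E12.5 Rictor and Tsc2 were higher by 0.46 and 0.31 while Mtor and Mknk2 were lower by log2 changes of -0.35 and -0.41. Of 8 genes of the integrated stress response, which eIF2 phosphorylation sets off, 2 were higher and 4 were lower, with Chac1 at 1.02 and Atf5 at -0.95. Of 9 mitochondrial translation factors, 1 was higher and 6 were lower, with Mtif3 at -1.40 and Tsfm at -0.96. Of 6 enzymes that add hypusine to eIF5A or diphthamide to eEF2, 1 was higher (Dhps, 0.35) and 3 were lower, with Dph3 at -0.94 and Dph1 at -0.87.

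Another 11 members gave no signal above background on any array. They were Eef1akmt2, Eif1ax, Eif2ak3, Eif2ak4, Eif2s3x-ps1, Eif3e, Eif3m, Eif4e1b, Eif4ebp3, Eif4g3 and Eif5a2. Their 15 probes gave signals of 60.2 to 104.8 and detection p-values of 0.0246 or higher, so that these data set no level for them. They include 2 of the eIF2 kinases, 2 eIF3 subunits and the paralog of Eif5a. Eif1, Eif2s1, Eif4g1, Eif3g and Eif3j2 were not analysed here.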

How the data were processed

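Cortical RNA of mouse embryos was measured on 12 Illumina WG-6 v2.0 arrays, 4 per stage, grouped by the stage in the labels. The authors deposited a probe signal, a linear intensity without normalization between arrays, and with it the detection p-value of each probe. The authors also deposited a table of log2 values, which equals the quantile-normalized log2 signals to within 5.00e-09. The labels' processing notes name lumi, without a version.

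Background was fitted from these p-values with limma 3.58.1 in R 4.3.3 (normal-exponential model, offset 16), followed by quantile normalization and log2. Probes whose detection p was under 0.01 on at least 1 array (19652 of 45281, whatever their symbol) entered a linear model with a mean per stage over all 12 arrays and moderated variances. Every adjusted p of a gene or probe is limma's, adjusted by Benjamini-Hochberg within a comparison over all tested probes. Paralog differences were tested by two-sided exact permutation (70 assignments). The number of arrays limits the precision. Median signals lay between 86.1 and 88.4 at E12.5, between 88.8 and 93.3 at E15.5, and between 94.97 and 99.3 at E18.5.

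The members and lists were chosen with earlier results of these data known. Named genes are the members of 8 paralog pairs, the 8 members that rose most and the 8 that fell most in each comparison, where that many were called, and the 3 of highest mean among the rest. Up to 3 genes of each other list are named by size of change, and for mTOR signaling the 4 called. Alternatives changed the background correction, scaling, detection filter, thresholds, variance model, array weights, samples, test, probe rule and replicate block, and left out arrays.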

Additional observations from a re-analysis of the deposited data

Results flagged for a closer look

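Within a stage of 4 arrays, a value was singled out where its gap to the nearest other array exceeded Dixon's critical value of 0.829 times the range. This gave 10 values in 150 groups of 50 members and 3 stages, and chance alone singles out about 1 in 20 groups. Eef1a2 was 9.09 in E12.5 replicate 4, with the other 3 arrays at 6.75 to 6.97, and this is the array with the high neuronal marker sum. In E12.5, Eif3c was 10.15 in replicate 2 (others 10.44 to 10.47) and Eif4b was 7.83 in replicate 3 (others 8.05 to 8.09). In E15.5, Eef1akmt1 was 9.46 in replicate 4 (others 9.64 to 9.68), Eef2k was 7.98 in replicate 4 (others 7.80 to 7.83) and Eif4b was 7.60 in replicate 2 (others 7.96 to 8.03). In E18.5, Eef1b2 was 13.04 in replicate 1 (others 12.78 to 12.81), Eef2kmt was 7.54 in replicate 3 (others 7.28 to 7.31), Eif3b was 9.49 in replicate 4 (others 9.35 to 9.36) and Eif4e was 7.27 in replicate 4 (others 7.79 to 7.87).

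The change between E15.5 and E18.5 differed from that between E12.5 and E15.5 for 5 members by the limma test of this difference. The differences were -1.25 for Eef1akmt1, -0.69 for Eif4e3, 0.55 for Eif2s2, 0.72 for Eif3a and 0.73 for Eif4enif1.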

How the results depend on the processing

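Counts of members were kept within 1.5 times under most alternatives. Median scaling gave 7 lower members at E15.5 compared with E12.5 and 2 with a difference between intervals, and cyclic loess gave 8 higher at E18.5 compared with E15.5. An adjusted p under 0.05 gave 7 higher at E18.5 compared with E15.5 and 13 with a difference between intervals. A minimum of 2-fold left 1 higher and 1 lower at E15.5 compared with E12.5, 0 and 1 at E18.5 compared with E15.5, 3 and 4 at E18.5 compared with E12.5, and 1 with a difference between intervals. Leaving out 1 array at a time gave 6 to 7, 2 to 5 and 6 to 8 higher members, 12 to 14, 13 to 18 and 17 to 21 lower members, in the same order, and 2 to 6 with a difference between intervals. With both arrays that stood apart (replicate 4 of E12.5 and of E15.5) left out, an alternative chosen after seeing the data, 6 were higher and 13 lower, 5 higher and 15 lower, and 7 higher and 20 lower, with 6 for the difference between intervals. The methods' t-test gave 7 higher and 11 lower, 6 and 17, and 7 and 18 after Benjamini-Hochberg. Without any 1 array, 18 of 19, 15 of 22 and 23 of 28 calls were kept in the 3 comparisons, and 2 of 5 for the difference between intervals.

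With the replicate number as a block, 3 members had a difference between intervals, and Eef1a2 minus Eef1a1 changed by 2.94, 0.96 and 3.90 (p = 0.125 each by exact permutation, the smallest that 4 pairs allow). Same-numbered arrays deviated with correlations of -0.331 to 0.272, so the numbers were not read as pairs. With the probes of a gene averaged, the changes of this pair were 2.64, 1.13 and 3.77 (exact permutation p = 0.0286 and adjusted p = 0.0623 each). Leaving out single arrays gave 2.69 to 3.46, 0.90 to 1.03 and 3.65 to 4.42 (adjusted p up to 0.0857). Averaging the probes turned the Eef1d change at E15.5 compared with E12.5 to 0.071 (adjusted p = 0.473) and ended its calls at E18.5 compared with E15.5 (-0.085, adjusted p = 0.393) and with E12.5 (-0.014, adjusted p = 0.883), as its probes moved in opposite directions. The median change of all probes between E12.5 and E18.5 was -0.07, and 0.13 under median scaling. The cause of the other differences was not tested. Probes near background give bounds only.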
